A study of Mus musculus with 22 samples.

Results

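The p53 response of the cisplatin-treated kidney was followed through 10 genes: Trp53 itself and 9 genes that the p53 protein is known to switch on, Cdkn1a, Mdm2, Ccng1, Phlda3, Eda2r, Trp53inp1, Gdf15, Zmat3, and Aen. Each was taken as the row of the kidney count table that carries its symbol, and each symbol matched 1 row of the 32858 genes listed. All 10 genes passed the filter on low counts, which kept 17131 genes.

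RNA-Seq libraries came from kidney tissue of 22 male C57Bl6/J mice aged 8 to 10 weeks, with no transgene or deleted allele in any group. Whether the whole organ or a piece was used is not given in the sources used here. Vehicle was given to 5 mice, KW6002 alone to 6, cisplatin alone to 5, and cisplatin plus KW6002 to 6 (the co-treated group). Cisplatin, a platinum drug that crosslinks DNA, was injected at 3 mg/kg on 6 days, and kidneys were taken 72 hours after the last injection. KW6002 (istradefylline), an antagonist of the adenosine A2A receptor, was given at 3 mg/kg from day -5 to day 7.

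p53 is a transcription factor that is kept at a low level in unstressed cells because Mdm2, an E3 ubiquitin ligase, marks it for degradation. DNA damage activates kinases that free p53 from Mdm2, and p53 then binds response elements near its target genes, which arrest the cell cycle, promote repair, or trigger apoptosis. Mdm2 is itself such a target, which closes a negative feedback loop, and in the kidney the tubular epithelium is known as the main site of this response to cisplatin.

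Totals ran from 26471762 to 40510754 counts per library. Values are given as CPM, the counts of a gene per 1000000 counts of the TMM-scaled library total, and each mouse is 1 replicate. The tubule markers moved with treatment. Summed over 10 proximal tubule markers, CPM lay between 36392 and 40844 in the vehicle group, 1900 and 3701 with cisplatin, and 6483 and 12086 in the co-treated group. In kidney tissue that was not sorted by cell type, fewer cells of a type and less RNA per cell cannot be told apart. Label numbers in the 300s were carried by 3 vehicle and 3 KW6002 libraries, and all cisplatin and co-treated libraries had numbers in the 500s.

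Promoter sequences are given first, because the genes differed in how closely they match the p53 response element. RefSeq windows of build GRCm38.p6, from 250 bases before to 50 after each annotated start, were found for 8 of the 10 genes (not for Trp53inp1 and Zmat3). They were searched for the p53 response element, which is 2 copies of the p53 consensus decamer, here set side by side with no spacer. The element is its own reverse complement, so that a single pass covers both strands, and a match had to keep the central C and G of both decamers. An element with at most 1 mismatch stood in the windows of Cdkn1a and Ccng1, against 22 of 27025 genes (0.0814%) in the whole table, and with at most 3 mismatches it stood in 4 of the 8 genes (Cdkn1a, Ccng1, Aen, and Trp53) against 1.63% of all genes. These 4 are shown because they carry the closest matches, 5′ to 3′ on the strand of the gene, with the element in capitals.
Cdkn1a, chr17:29090908-29090967, plus strand, 1 mismatch, first base of the element at -51 from the first annotated start: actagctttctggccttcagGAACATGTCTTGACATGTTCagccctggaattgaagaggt
Ccng1, chr11:40755442-40755501, minus strand, 1 mismatch, at -195: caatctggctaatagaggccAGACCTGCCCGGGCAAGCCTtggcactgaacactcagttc
Trp53, chr11:69580264-69580323, plus strand, 3 mismatches, at -75: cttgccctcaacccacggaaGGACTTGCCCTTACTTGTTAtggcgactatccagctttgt
Aen, chr7:78895937-78895956, plus strand, 3 mismatches, at -121 from its second annotated start: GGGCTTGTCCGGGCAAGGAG
A single exact decamer was found in 5 of the 8 genes and in 9.55% of all genes. A match is a description of letters, not a shown binding site. Elements outside these windows, such as those in introns, were not searched.

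Cisplatin raised all 10 genes, and the 9 targets of p53 rose by far more than Trp53. With edgeR's quasi-likelihood test and Benjamini-Hochberg adjustment over all 17131 genes, 9 of the 10 were called higher (a log2 fold change over 1 with an adjusted p under 0.01), where 12.1% of all genes tested were called higher. All 10 passed an adjusted p of 0.05 in that direction, as did 34.6% of all genes. In all 10 genes the lowest cisplatin mouse lay above the highest vehicle mouse, which held for 27.4% of all genes. The median log2 fold change was 3.24 over the 10 genes and -0.01 over all genes tested. Over all genes, 2069 were called higher and 2068 lower, a split that scaling by library size alone moved to 2723 and 1629, with all 10 members still higher. When KW6002 was added to cisplatin, 8 of the 10 genes were lower than with cisplatin alone at an adjusted p below 0.05, against 27.2% of all genes, but Gdf15 was the only member called lower at the stricter threshold, against 5.66% of all genes. The median log2 fold change of co-treated against cisplatin-treated mice was -0.46 over the 10 genes and 0.01 over all genes. The co-treated mice lay below all cisplatin mice in 8 of the 10 genes, against 18.5% of all genes. The comparison of cisplatin with vehicle and that of co-treated with cisplatin mice share the cisplatin mice, so that their values are only given side by side.

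**Figure D1:**
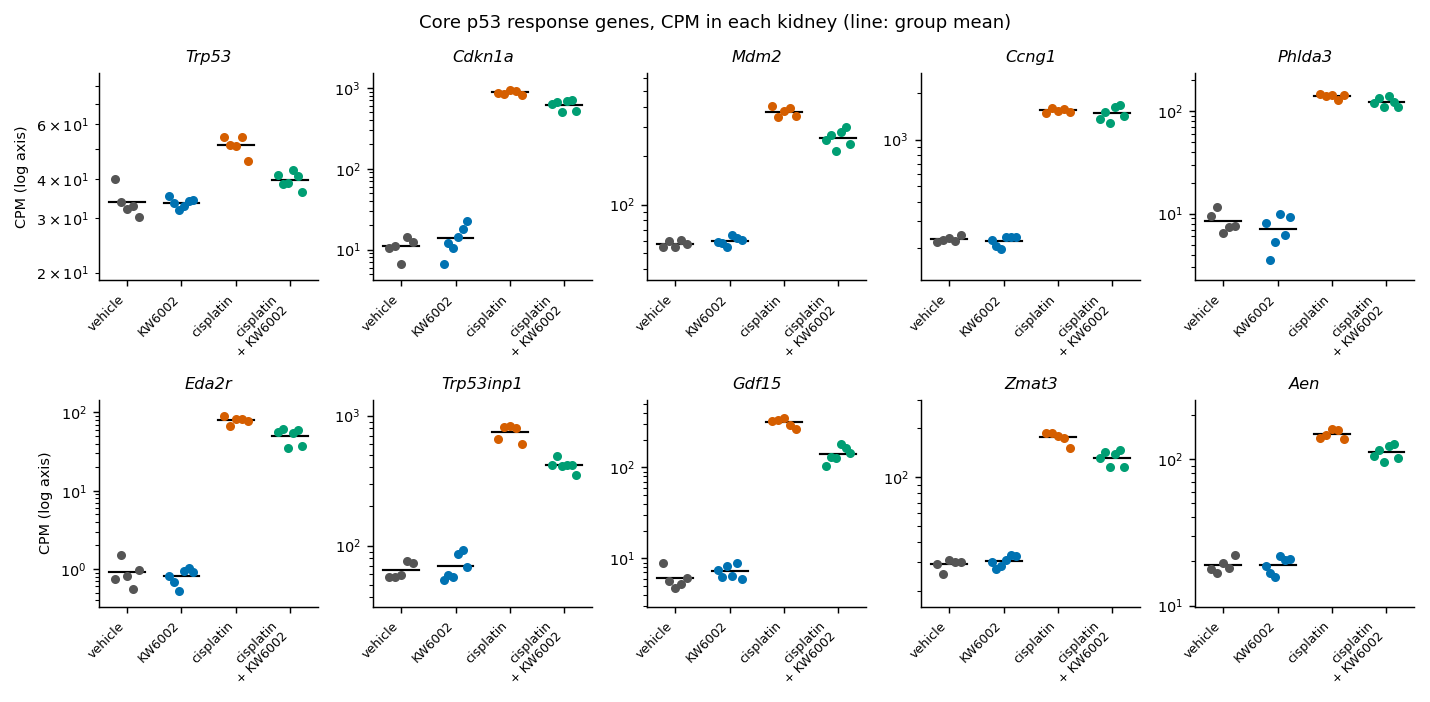
Each panel shows 1 gene, with a point for each kidney, a line at the group mean, and CPM on a log axis that differs between panels. The cisplatin mice lie above all vehicle mice in each of the 10 panels, and the co-treated mice lie below all cisplatin mice in 8 of them, Ccng1 and Phlda3 being the exceptions.

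Trp53 encodes p53 (ENSMUSG00000059552, chromosome 11, 69580359 to 69591873, plus strand, mm10). Its transcript stood at 40, 33.8, 32.1, 32.7, and 30.2 CPM in the 5 vehicle mice and at 54.8, 51.7, 51, 54.7, and 45.9 CPM in the 5 cisplatin mice. The co-treated mice ran from 36.3 to 42.8 CPM with a median of 39.9. The co-treated group lay below every cisplatin mouse and overlapped the vehicle group. Trp53 rose by a log2 fold change of 0.61 (SE 0.06, adjusted p = 1.38e-08 by edgeR) with cisplatin, changed by -0.37 (SE 0.06, adjusted p = 1.8e-05) when KW6002 was added, and remained above vehicle by 0.24 (SE 0.06, adjusted p = 0.00208). The rise was 1.53-fold on the CPM scale, and Trp53 was the only member with a log2 fold change under 1. The pseudogene Trp53-ps had at most 1 count in any library, where Trp53 had 842 to 2058.

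Mdm2, the ligase that holds p53 down and is itself induced by it (ENSMUSG00000020184, chromosome 10, 117688875 to 117710758, minus strand), stood at 55, 59.6, 54.4, 60.3, and 57.4 CPM with vehicle. Cisplatin brought it to 404, 349, 380, 393, and 350 CPM. In the co-treated mice it ran from 214 to 299 CPM with a median of 258. The 3 groups did not overlap. The log2 fold change was 2.71 (SE 0.08, adjusted p = 7.14e-18) for cisplatin against vehicle and -0.54 (SE 0.07, adjusted p = 6.07e-07) for co-treated against cisplatin. The mean in the co-treated group was 68.6% of that with cisplatin alone and 4.49-fold that with vehicle.

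Cdkn1a and Ccng1 carry the near-complete elements shown above and act on the cell cycle. Cdkn1a encodes p21, an inhibitor of cyclin-dependent kinases (ENSMUSG00000023067, chromosome 17, 29090976 to 29100727, plus strand). It stood at 10.6, 11, 6.65, 14.4, and 12.6 CPM with vehicle and at 874, 851, 948, 923, and 809 CPM with cisplatin, a 79.6-fold difference of the means. With KW6002 added, values ran from 501 to 699 CPM, with a median of 652. No co-treated mouse reached the lowest cisplatin mouse, and none came near the vehicle range. The log2 fold change was 6.32 (SE 0.26, adjusted p = 3.21e-15) with cisplatin and -0.51 (SE 0.20, adjusted p = 0.0321) for the addition of KW6002. That adjusted p ranged from 0.000359 to 0.0693 over the alternative analyses: it was 0.0526 with DESeq2, 0.0561 with fat markers as a covariate, and between 0.0591 and 0.0693 without cisplatin replicate 3 or 4 or without co-treated replicate 3 or 6. With only the libraries numbered in the 500s, it was 0.000529. Cdkn1a shares 273 exonic bases with AC167363.2 on the other strand, and whether strand was used in counting is not given in the sources used here.

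Ccng1 encodes cyclin G1, which recruits a phosphatase to Mdm2 (ENSMUSG00000020326, chromosome 11, 40748552 to 40755311, minus strand). It had 219, 228, 233, 222, and 242 CPM with vehicle and 1488, 1593, 1523, 1582, and 1506 CPM with cisplatin. The co-treated mice ran from 1277 to 1668 CPM with a median of 1465, so that 2 of the 6, at 1630 and 1668 CPM, lay above every cisplatin mouse. The log2 fold change with cisplatin was 2.75 (SE 0.07, adjusted p = 2.35e-18), close to that of Mdm2. For the addition of KW6002 it was -0.06 with an adjusted p of 0.47, and the 95% interval of that difference ran from -0.19 to 0.08. The interval lies wholly above the estimate for Mdm2.

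Phlda3, Eda2r, Trp53inp1, and Aen act in survival and death signalling. Phlda3 encodes a protein with a pleckstrin homology domain that competes with Akt for membrane lipids (ENSMUSG00000041801, chromosome 1, 135766119 to 135769136, plus strand). It went from 9.52, 11.5, 6.49, 7.43, and 7.55 CPM with vehicle to 145, 138, 141, 127, and 142 CPM with cisplatin, and the co-treated mice ran from 108 to 139 CPM. The cisplatin and co-treated groups overlapped. The log2 fold change was 4.03 (SE 0.19, adjusted p = 2.25e-14) with cisplatin and -0.19 for the addition of KW6002 (95% interval -0.51 to 0.14, adjusted p = 0.322). When only the cisplatin and co-treated mice entered the fit, the log2 fold change stayed at -0.19 with an SE of 0.07 and an adjusted p of 0.0257, and with fat markers as a covariate it was 0.09 with an adjusted p of 0.712.

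Eda2r encodes a receptor of the tumor necrosis factor receptor family that binds ectodysplasin A2 (ENSMUSG00000034457, chromosome X, 97333840 to 97377216, minus strand). It was scarce in control kidneys, at 0.745, 1.52, 0.806, 0.564, and 0.976 CPM with vehicle (16 to 38 counts). Cisplatin brought it to 91.2, 67.2, 83.4, 83.4, and 78.5 CPM, which gave the highest log2 fold change of the 10 genes, 6.47 (SE 0.21, adjusted p = 4.86e-17). The co-treated mice ran from 35.5 to 61 CPM with a median of 55.5 and lay below all cisplatin mice, by a log2 fold change of -0.67 (SE 0.13, adjusted p = 0.000214). Co-treated replicates 3 and 6, at 35.5 and 36.9 CPM, stood apart from the other 4, which ran from 55.3 to 61 CPM.

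Trp53inp1, a nuclear protein that promotes p53-dependent apoptosis and autophagy (ENSMUSG00000028211, chromosome 4, 11156431 to 11174379, plus strand), had 57.1, 57.2, 59.3, 76.4, and 73.8 CPM with vehicle. Cisplatin brought it to 657, 815, 830, 805, and 609 CPM. Values of 351 to 491 CPM with a median of 419 were found in the co-treated mice, with no overlap of the 3 groups. The log2 fold changes were 3.52 (SE 0.15, adjusted p = 3.82e-15) and -0.83 (SE 0.13, adjusted p = 9.8e-06). Within the vehicle group, the 2 mice numbered in the 500s were the 2 highest.

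Aen encodes a nuclease that degrades DNA and RNA during apoptosis (ENSMUSG00000030609, chromosome 7, 78895854 to 78911209, plus strand). It went from 17.9, 16.7, 19.6, 18.1, and 22.1 CPM to 140, 146, 159, 157, and 137 CPM with cisplatin. In the co-treated mice it ran from 95.6 to 126 CPM with a median of 110, again with no overlap. The log2 fold changes were 2.97 (SE 0.10, adjusted p = 6.84e-17) for cisplatin against vehicle and -0.42 (SE 0.08, adjusted p = 0.000232) for co-treated against cisplatin.

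The remaining members are Gdf15, whose product is secreted, and Zmat3, whose product binds RNA. Gdf15 encodes a secreted cytokine of the TGF-β superfamily whose receptor in the brainstem lowers appetite (ENSMUSG00000038508, chromosome 8, 70629393 to 70632456, minus strand). It stood at 8.87, 5.69, 4.7, 5.21, and 6.02 CPM with vehicle and at 324, 331, 349, 294, and 268 CPM with cisplatin. The 6 co-treated mice had 103, 129, 126, 182, 165, and 145 CPM. All co-treated mice thus lay well below the lowest cisplatin mouse and above the highest vehicle mouse. The log2 fold change was 5.68 (SE 0.18, adjusted p = 4.17e-17) with cisplatin and -1.14 (SE 0.13, adjusted p = 2.45e-07) for the addition of KW6002, the largest reduction of the 10. Over the alternative fits the latter ran from -1.23 to -1.07. With the null hypothesis set at a log2 change of 1 in place of 0, the Gdf15 reduction was not called.

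Zmat3 encodes a zinc finger protein that binds RNA and acts on splicing and mRNA stability (ENSMUSG00000027663, chromosome 3, 32334792 to 32366014, minus strand). It had 29.2, 25.6, 30.9, 30.1, and 30.1 CPM with vehicle and 187, 188, 179, 174, and 152 CPM with cisplatin. The co-treated mice ran from 115 to 147 CPM with a median of 136, below all cisplatin mice. Its log2 fold changes were 2.59 (SE 0.08, adjusted p = 3.85e-17) and -0.41 (SE 0.07, adjusted p = 4.11e-05), the latter nearly the same as that of Aen.

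**Figure D2:**
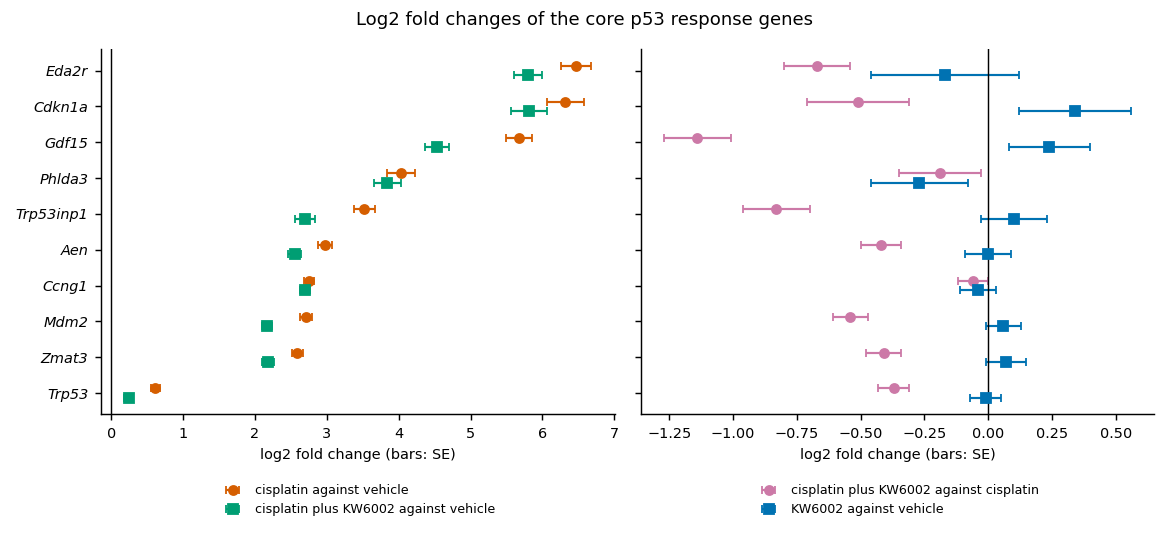
Points are edgeR log2 fold changes with bars of 1 SE for the 10 genes, ordered by the cisplatin effect. On the left, cisplatin and co-treatment are each set against vehicle, and on the right, co-treatment is set against cisplatin and KW6002 against vehicle. On the left, the co-treated values lie below the cisplatin values in all 10 genes, from 2.69 against 2.75 for Ccng1 to 4.53 against 5.68 for Gdf15. Gdf15 reaches the lowest value on the right, at -1.14.

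Against vehicle, the co-treated kidneys kept most of the induction on a log scale. In the comparison of co-treated with vehicle mice, the same 9 genes were called higher, where 5.83% of all genes were called higher, and the groups did not overlap in 9 of the 10, against 18.9% of all genes. All 10 were higher at an adjusted p under 0.05, as were 29.8% of all genes. The median log2 fold change was 2.69 over the 10 genes and 0.00 over all genes tested. The share of the cisplatin effect kept was computed in each co-treated mouse as its distance from the vehicle mean divided by the distance of the cisplatin mean from the vehicle mean, in log2 CPM. It averaged 97.7% ± 5.44 (SD, n = 6) for Ccng1 and 95.3% ± 3.51 for Phlda3. Next came Cdkn1a with 91.9% ± 3.33, Eda2r with 89.1% ± 5.50, Aen with 85.8% ± 5.28, and Zmat3 with 83.9% ± 6.05. The lowest shares were 79.7% ± 6.46 for Mdm2, 79.6% ± 5.16 for Gdf15, and 76.5% ± 4.38 for Trp53inp1. Over the 9 called genes the median share was 85.8%. Trp53, with its small rise, kept 39.5% ± 13.6.

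The scale matters for genes that rose many-fold. On the linear CPM scale, the median share kept over the 9 genes was 70.1%, and the shares were 44.2% ± 9.28 for Gdf15, 52.0% ± 6.58 for Trp53inp1, 62.4% ± 14.3 for Eda2r, and 62.9% ± 9.69 for Mdm2. Ccng1 still kept 95.4% ± 11.7 and Phlda3 87.1% ± 9.29, while Cdkn1a and Zmat3 each kept 70.1% and Aen 71.2%. On both scales Ccng1 and Phlda3 were the highest and Trp53inp1 and Gdf15 among the lowest 3. Cdkn1a came next after Phlda3 on the log2 scale and lay close to Aen and Zmat3 on the CPM scale.

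**Figure D3:**
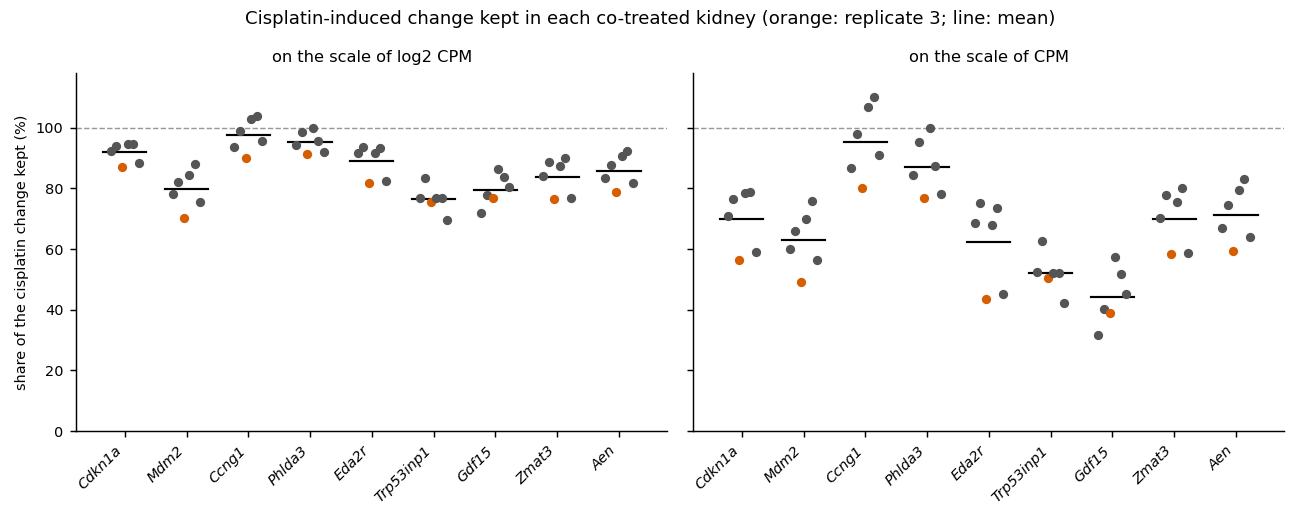
Points are the 6 co-treated mice, lines are their means, and the dashed line marks a share of 100%, equal to the cisplatin mean. Replicate 3, in orange, has the lowest share for 7 of the 9 genes on the log2 scale, and the means lie between 76.5% and 97.7% on that scale and between 44.2% and 95.4% on the CPM scale.

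The same mice were low for most of the 9 called genes. Co-treated replicate 3 had the lowest share for 7 of the 9 genes and was among the lowest 2 for all 9, and replicate 6 was among the lowest 2 for 7. The genes share the scaling of each library, so these counts are not independent. How other genes raised by cisplatin ranked in these mice was not tested, so the order is not shown to be particular to the p53 genes. TMM factors were 1.036 and 1.006 in replicates 3 and 6 and 1.05 to 1.064 in the other 4. Replicate 5 had the highest share for 5 genes. Averaged over the 9 genes, the shares were 80.9% in replicate 3, 82.5% in replicate 6, 85.2% in replicate 1, and 89.4%, 90.5%, and 91.0% in replicates 2, 4, and 5. Thick ascending limb markers summed to 4332 and 4361 CPM in replicates 3 and 6 and to between 2444 and 3508 CPM in the other 4. Their sums were 4718 to 7833 CPM with vehicle and 2071 to 2386 CPM with cisplatin. Proximal tubule markers did not follow the same order. They summed to 12086 CPM in replicate 6 and 7656 CPM in replicate 3, but to 9143 CPM in replicate 1. Replicates 2, 4, and 5 had 6483, 7049, and 6716 CPM. The sums of macrophage, fat, and proliferating cell markers did not set replicates 3 and 6 apart from the other 4 either. The part of these markers in the shares was not tested. Among the 5 cisplatin mice, replicate 5 was the lowest for 5 of the 9 genes and replicate 3 the highest for 4. Leaving out any single library moved the median share only between 84.5% and 87.2%.

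Since all genes of a library share its scaling, the genes were also compared within each mouse as log2 ratios, which no scaling of libraries can alter. This test was chosen after the values had been seen. Cisplatin and co-treated mice were compared for each of the 45 pairs of the 10 genes with a two-sided exact permutation test over the 462 ways to divide the 11 mice. The smallest p that this design allows is 0.00433, or 0.0115 after adjustment over the 45 pairs. Of the pairs, 25 passed an adjusted p of 0.05, and in 17 the groups did not overlap. The 45 pairs share 10 genes and are not independent. Pairs of other genes were not tested, so no share over all genes stands beside these counts. Between these groups 28.6% of all genes were higher and 27.2% lower at an adjusted p below 0.05 by edgeR. The counts are thus not shown to be particular to these members. The log2 ratio of Ccng1 to Gdf15 was 2.30 ± 0.15 (SD, n = 5) with cisplatin and 3.40 ± 0.20 (SD, n = 6) in the co-treated mice, a shift of 1.10 (exact permutation p = 0.00433). The ratio of Ccng1 also shifted without overlap against Trp53inp1 by 0.76, Eda2r by 0.63, Aen by 0.36, and Zmat3 by 0.35, and the ratios of Mdm2 and Cdkn1a to Ccng1 shifted by -0.49 and -0.45, each with that same smallest exact p. Ccng1 was thus higher relative to 7 other members in the co-treated mice, without overlap of the groups. The ratio of Ccng1 to Phlda3 shifted by 0.13 with an exact permutation p of 0.0823.

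Gdf15 was lower relative to most other members. The groups did not overlap for its ratio with Trp53, Cdkn1a, Mdm2, Ccng1, Phlda3, Zmat3, and Aen, with shifts between 0.61 and 1.10 toward the other gene. Against Eda2r and Trp53inp1, the shifts of 0.47 and 0.34 had adjusted exact permutation p-values of 0.0767 and 0.118. The ratio of Zmat3 to Aen shifted by 0.00 (adjusted exact permutation p = 0.939), and that of Cdkn1a to Mdm2 by 0.03 (adjusted exact permutation p = 0.514). A p that misses the threshold does not show that a pair moved alike.

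KW6002 without cisplatin changed none of the 10 genes detectably. None was called or passed an unadjusted p of 0.05 with edgeR against vehicle, DESeq2 also called 0, and over all genes tested edgeR called 0 (0%) and 1930 (11.3%) had an unadjusted p below 0.05. Log2 fold changes ran from -0.27 for Phlda3 to 0.34 for Cdkn1a (95% interval -0.12 to 0.80). KW6002 mice had 6.73 to 22.8 CPM of Cdkn1a with a median of 13.2, 5.98 to 8.90 CPM of Gdf15 with a median of 6.97, and 0.527 to 1.02 CPM of Eda2r with a median of 0.867, overlapping the vehicle mice in each case.

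The effect of KW6002 differed between mice with and without cisplatin for 7 of the 10 genes. In the test of that difference, 7 passed an adjusted p of 0.05 toward a lower value with cisplatin, against 19.9% of all genes, and only Gdf15 was called, at -1.38 (SE 0.21, adjusted p = 1.99e-05), against 4.33% of all genes. Trp53inp1 followed at -0.93 (SE 0.18, adjusted p = 0.000306), Cdkn1a at -0.85 (SE 0.29, adjusted p = 0.0238, but 0.0515 without vehicle replicate 3 and 0.0502 without KW6002 replicate 6), and Mdm2 at -0.61 (SE 0.10, adjusted p = 3.57e-05). Zmat3, Aen, and Trp53 lay between -0.48 and -0.37. Eda2r did not pass, at -0.50 with an adjusted p of 0.212 and an interval from -1.17 to 0.16, nor did Ccng1 at -0.02 or Phlda3 at 0.09. The low counts of Eda2r without cisplatin, 15 to 38 per library, limit this test for it.

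The number series of the labels went along with the baseline level of some genes. Vehicle and KW6002 mice numbered in the 500s had more Cdkn1a than those in the 300s without overlap, at 12.6 to 14.4 against 6.65 to 11 CPM with vehicle and 14.4 to 22.8 against 6.73 to 12.0 CPM with KW6002. The same held for Trp53inp1, at 73.8 to 76.4 against 57.1 to 59.3 CPM with vehicle and 68.3 to 91.9 against 54.2 to 59.4 CPM with KW6002. Among the KW6002 mice, Mdm2, Ccng1, Eda2r, Zmat3, and Aen were also higher in the 500s without overlap, 7 of the 10 genes in all, against 13.1% of all genes tested. Among the vehicle mice it was 2 of the 10 against 18.3%. What the series stands for is not given in the sources used here. With only the 16 libraries of the 500s, the cisplatin log2 fold change was 6.02 (SE 0.21) for Cdkn1a and 3.30 (SE 0.16) for Trp53inp1, the same 9 genes were called, and the addition of KW6002 gave -1.14 (SE 0.12) for Gdf15, -0.83 (SE 0.10) for Trp53inp1, and -0.50 (SE 0.10) for Cdkn1a. In those libraries, 2187 of 17761 genes tested were called higher with cisplatin.

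Cisplatin also changed which members were the most abundant. Per kb of exon sequence, so that genes can be compared, Ccng1 led in all 4 groups, with a mean level of 65.2 ± 2.59 (SD, n = 5) CPM per kb with vehicle and 438 ± 13.3 with cisplatin. With vehicle, Mdm2 (11.3), Trp53inp1 (10.0), and Trp53 (8.34 CPM per kb) came next, with overlapping ranges between neighbors, and Cdkn1a stood eighth at 3.11 ± 0.813 CPM per kb. With cisplatin, Cdkn1a was second at 248 ± 15.6 CPM per kb followed by Gdf15 at 169 ± 17.3, and no neighbors overlapped from the first to the eighth place. Trp53 was last at 12.8 ± 0.899 CPM per kb, in overlap with Eda2r at 13.7. In the co-treated mice Cdkn1a stayed second at 175 ± 24.6 CPM per kb. Gdf15, at 76.5 ± 15.4, came behind Phlda3 at 78.2 ± 7.75 CPM per kb, with overlapping ranges.

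The genes outside the list whose levels ran closest to the 9 called members were Cdc42bpg, Cbr3, Gsta1, Ces2e, and Samd5. Pearson's r of their log2 CPM with the mean standardized log2 CPM of the members was between 0.993 and 0.997 over the 22 libraries, among 12979 genes searched, and since the libraries share 4 groups, it is a description of these libraries only. Cbr3 encodes a carbonyl reductase and went from 1.48 ± 0.33 CPM with vehicle to 112 ± 10.3 with cisplatin and 65.9 ± 20.2 in the co-treated mice. Ces2e encodes a carboxylesterase and had 19.4 ± 1.97, 790 ± 55.1, and 367 ± 38.7 CPM in the same order. Gsta1, a glutathione S-transferase with close paralogs between which reads may be divided, had 0.125 ± 0.0688, 38.2 ± 4.07, and 21.1 ± 7.97 CPM. Cdc42bpg, a kinase that acts downstream of Cdc42, rose less, from 114 ± 5.99 to 380 ± 16.4 and 323 ± 20.1 CPM. Each member's own r with the mean of the other called members was between 0.985 and 0.998, except for Trp53 with 0.843.

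Most other targets of p53 rose with cisplatin. Of 28 further targets listed, 27 could be tested (Spata18 had too few counts), and at an adjusted p below 0.05 23 of them were higher and 1 lower, against 34.6% and 35.9% of all genes. With cisplatin, 17 of the 27 were called higher and 1 lower, where 12.1% of all genes were called in each direction, and the median log2 fold change was 1.67, against -0.01 over all genes. Ddb2 (0.13), Xpc (-0.04), and Rrm2b (-0.04), which act in DNA repair and nucleotide supply, did not pass an adjusted p of 0.05. The 6 with the largest change were Btg2 (5.01, SE 0.16), an antiproliferative cofactor, Gtse1 (4.99, SE 0.19), which moves p53 out of the nucleus, Tnfrsf10b (3.03, SE 0.17), a death receptor, Sfn (2.87, SE 0.13), the 14-3-3 sigma protein of the G2 checkpoint, and the polo-like kinases Plk3 (2.68, SE 0.25) and Plk2 (2.55, SE 0.15). Each of the 6 had an adjusted p of 1.93e-09 or less by edgeR. Btg2 went from 23.0 ± 1.79 to 742 ± 121 CPM. The one target called lower was the mitochondrial reductase Fdxr (18.7 CPM with vehicle and 9.32 CPM with cisplatin), which stood at the edge of the threshold and was not called with DESeq2.

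Adding KW6002 lowered 17 and raised 3 of these 27 targets at an adjusted p below 0.05, where 27.2% of all genes were lower and 28.6% higher, and the median log2 fold change was -0.43, against 0.01 over all genes. Btg2 (-1.64, SE 0.13), Sfn (-1.18, SE 0.12), and the tyrosine phosphatase Ptp4a3 (-1.14, SE 0.12) were called lower, against 5.66% of all genes. Gadd45a, a stress sensor of the growth arrest and DNA damage family, had -0.89 (SE 0.14), and Perp, an apoptosis effector at desmosomes, -0.82 (SE 0.08). Plk3 went the other way, at 0.87 (SE 0.22, adjusted p = 0.00181): it had 12.1 ± 2.70 CPM with vehicle, 77.4 ± 8.95 with cisplatin, and 141 ± 19.6 in the co-treated mice. Bax, the pore-forming apoptosis protein, had 0.22 (SE 0.06, adjusted p = 0.0056) and Fdxr 0.54 (SE 0.09, adjusted p = 1.38e-05). The pro-apoptotic BH3 gene Bbc3, as another target that did not pass, had -0.05 with an adjusted p of 0.75, and Plk2 had 0.06 with an adjusted p of 0.733. In this comparison Bbc3, Plk2, Bax, and Fdxr, and with cisplatin Ddb2, Xpc, Rrm2b, and Fdxr, were chosen after their values were seen.

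Against vehicle, 15 of the 27 targets were still called higher and 0 lower in co-treated mice, against 5.83% and 7.59% of all genes, with a median log2 fold change of 1.08. At an adjusted p below 0.05, 22 were higher and 2 lower, against 29.8% and 29.9% of all genes, and DESeq2 also called 15. The largest values were 4.27 (SE 0.19) for Gtse1, 3.55 (SE 0.25) for Plk3, 3.37 (SE 0.14) for Btg2, 2.61 (SE 0.15) for Plk2, 2.48 (SE 0.15) for Bbc3, and 2.46 (SE 0.17) for Tnfrsf10b. KW6002 alone called 0 of the 27 with edgeR and with DESeq2, and 2 had an unadjusted p below 0.05, against 11.3% of all genes. In the test of the difference between the effects of KW6002 with and without cisplatin, 3 of the 27 were called lower, against 4.33% of all genes. They were Btg2 (-1.75), Ptp4a3 (-1.24), and Sfn (-1.18), followed by Perp (-0.82), Gadd45a (-0.75), and Gtse1 (-0.67). At an adjusted p below 0.05, 14 were lower and 2 higher, where 19.9% of all genes were lower.

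**Figure D4:**
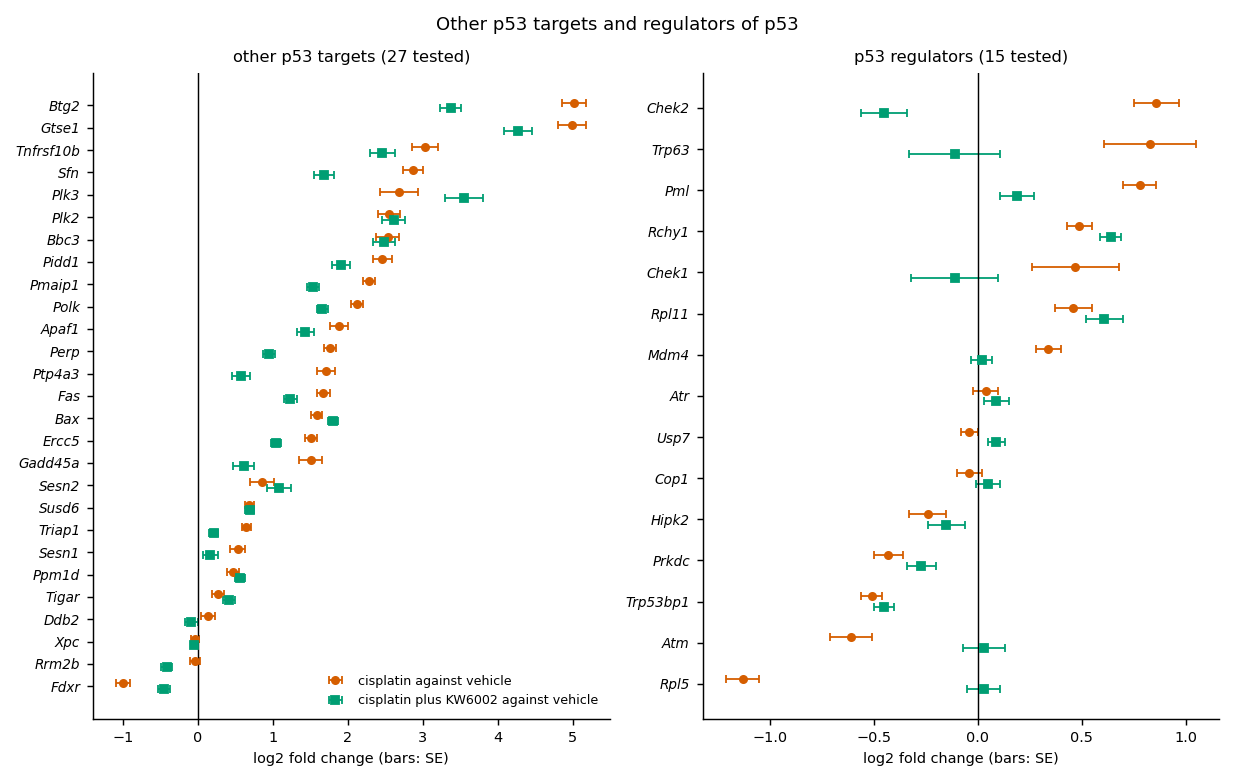
Points are edgeR log2 fold changes with bars of 1 SE, against vehicle, of 27 other p53 targets (left) and 15 genes that act on p53 (right), for cisplatin and for co-treatment. Among the targets, Btg2 drops from 5.01 to 3.37 and Plk3 lies higher with co-treatment (3.55) than with cisplatin (2.68), and among the regulators Rpl5 lies at -1.13 with cisplatin and 0.03 with co-treatment.

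Of 17 genes listed that act on p53 itself, 15 could be tested (not Cdkn2a and Trp73). With cisplatin 0 were called higher and 1 lower, where 12.1% of all genes were called in each direction, with 6 higher and 5 lower at an adjusted p below 0.05, against 34.6% and 35.9% of all genes, and a median log2 fold change of 0.04. That gene was Rpl5, a ribosomal protein that binds Mdm2, at -1.13 (SE 0.08), followed by the checkpoint kinase Chek2 at 0.86 (SE 0.11) and the p53 family member Trp63 at 0.83 (SE 0.22). The split depends on scaling: without TMM factors the median of all genes moved to 0.204, Rpl5 was no longer called, and Chek2 and Trp63 were called higher. Rpl5 overlaps Fam69a on the other strand and has many processed copies, so that its counts are uncertain.

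With KW6002 added to cisplatin, Chek2 had a log2 fold change of -1.31 (SE 0.11, adjusted p = 1.06e-09) and Rpl5 one of 1.16 (SE 0.08, adjusted p = 7.14e-11), the 2 regulators called, against 5.66% of all genes called lower and 4.65% called higher. Trp63 had -0.94 (SE 0.21, adjusted p = 0.000575). In all, 4 regulators were higher and 5 lower at an adjusted p below 0.05, against 28.6% and 27.2% of all genes. Chek2 went from 7.68 ± 1.28 CPM with vehicle to 14.0 ± 1.6 with cisplatin and 5.62 ± 0.763 in the co-treated mice. In the comparison of co-treated with vehicle mice, 0 of the 15 were called by edgeR and by DESeq2, 6 had an unadjusted p below 0.05 (63.4% of all genes), and the largest at an adjusted p below 0.05 were Rchy1 (0.64, SE 0.05), a ubiquitin ligase for p53, Rpl11 (0.61, SE 0.09), another ribosomal protein that binds Mdm2 and likewise has near-identical copies, with only 3.63 CPM with vehicle and 5.52 CPM here, and, at -0.45 each, the p53-binding protein Trp53bp1 (SE 0.05) and Chek2 (SE 0.11, adjusted p = 0.00124). In the test of the difference between the effects of KW6002 with and without cisplatin, Chek2 (-1.18) and Rpl5 (1.11) were called, against 4.33% of all genes called lower and 4.24% called higher, and Trp63 had -0.76.

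Markers of other cells and of dividing cells were also read. With cisplatin, 34.6% of all genes were higher and 35.9% lower at an adjusted p below 0.05 by edgeR. With KW6002 added to cisplatin, 28.6% were higher and 27.2% lower. The 5 markers of proliferating cells summed to 7.82 to 19.1 CPM with vehicle, 28.2 to 41.1 with cisplatin, and 6.29 to 16.5 in the co-treated mice, and all 5 were lower with KW6002 added to cisplatin at an adjusted p below 0.05. The 7 macrophage markers summed to 162 to 313 CPM with vehicle, 208 to 287 with cisplatin, and 120 to 177 in the co-treated mice. They did not move as a set: with cisplatin 1 was higher, 2 were lower, and 4 did not pass an adjusted p of 0.05. With KW6002 added, 1 was higher, 1 was lower, and 5 did not pass. The 6 fat markers summed to 54.5 to 800 CPM with vehicle, 210 to 440 with cisplatin, and 6.56 to 266 in the co-treated mice. With cisplatin 1 of them was lower and 5 did not pass an adjusted p of 0.05. With KW6002 added, 4 were lower and 2 did not pass. The 5 podocyte markers summed to between 449 and 585 CPM over the 4 groups, while with cisplatin 2 were higher and 3 lower at an adjusted p below 0.05 (log2 fold changes of -0.74 to 0.61). T cell markers were scarce and summed to 3.69 to 6.83 CPM with vehicle, 1.42 to 2.32 with cisplatin, and 2.07 to 4.15 in the co-treated mice. Of the 5 tested, 4 were called lower with cisplatin, against 12.1% of all genes. The 5 neutrophil markers summed to 2.49 to 10.7 CPM with vehicle, 3.09 to 7.28 with cisplatin, and 2.18 to 5.34 in the co-treated mice. Of the 3 neutrophil markers tested, 1 was higher with cisplatin at an adjusted p below 0.05, and Mpo was at 0 in all cisplatin and co-treated libraries and in some of the others. The part of these cells in the changes of the p53 genes was not tested, other than with the fat covariate, with which the same 9 members were called with cisplatin and Gdf15 with KW6002 added. Under that covariate, 2102 of 17131 genes were called higher with cisplatin and 706 lower with KW6002 added.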

How the data were processed

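Kidney RNA was read as stranded poly(A) RNA-Seq (TruSeq) from 22 mice. Per the labels and the methods of the study, the authors demultiplexed reads with bcl2fastq 2.17.1.14, aligned them to mm10 with STAR, and counted uniquely mapped reads per gene with HTSeq 0.6.1p1 in union mode. The deposited values are raw counts per gene, so that reads shared by near-identical genes were dropped, which lowers genes with such copies. The strand setting of the counting is not given in the sources used here. Samples were grouped by their labels, with 5 or 6 mice per group. In the table, 34 genes had no symbol, and 66 unnamed empty columns were not used.

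Counts were normalized with TMM factors (0.925 to 1.12) and tested with edgeR 4.0.16 (R 4.3.3, limma 3.58.1), using the quasi-likelihood F test on 1 mean per group over all 22 libraries and Benjamini-Hochberg adjustment. Genes needed 10 counts at the median library (CPM 0.306) in 5 libraries and 15 in all, which kept 17131 genes with 99.9% of the counts and removed 15727. A gene was called where its log2 fold change exceeded 1 in size with an adjusted p under 0.01, and a single gene was judged at an adjusted p below 0.05. Totals of 26471762 to 40510754 counts, with a median of 32721214.5, and a biological coefficient of variation of 0.129 set the precision. Log2 CPM used a prior count of 2. DESeq2 1.42.0 was an alternative, beside other scalings, filters, thresholds, samples, and covariates and the omission of single libraries. The fits were tested on simulated data first. Ratios were tested with scipy 1.17.1 (Python 3.11.15, pandas 2.3.3). Gene positions and exon lengths came from GENCODE M21 (mm10), and promoters from RefSeq (GRCm38.p6).

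The members, gene lists, and tests were chosen with earlier results of these data known. Named genes were all 10 members, the 6 other p53 targets and 3 regulators with the largest change at an adjusted p below 0.05 in each comparison, and the 5 genes most like the members with a mean log2 CPM of at least 1. A few others, named as such, were chosen after their values were seen.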

Additional observations from a re-analysis of the deposited data

Results flagged for a closer look

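For 7 of the 10 genes the effect of KW6002 differed between mice with and without cisplatin, by edgeR's test of that difference, and all 7 were lower with cisplatin. The log2 difference was -1.38 for Gdf15 (adjusted p = 1.99e-05), -0.93 for Trp53inp1 (adjusted p = 0.000306), -0.85 for Cdkn1a (adjusted p = 0.0238), and -0.61 for Mdm2 (adjusted p = 3.57e-05). For Zmat3 it was -0.48 (adjusted p = 0.000776), for Aen -0.42 (adjusted p = 0.00922), and for Trp53 -0.37 (adjusted p = 0.00165). The Cdkn1a value had an adjusted p of 0.0515 without vehicle replicate 3 and 0.0502 without KW6002 replicate 6. Over all genes tested, 19.9% passed in the same direction. In 40 gene-by-group sets of 5 or 6 mice, 0 held a mouse far enough from the others to pass Dixon's test, where chance passes about 1 in 20. The test looks for a single mouse, so it can miss 2 that lie apart together, as co-treated replicates 3 and 6 did for Eda2r. The sets also share the same mice and are not independent.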

How the results depend on the processing

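For the 10 genes, 9 were called with cisplatin, 9 in co-treated against vehicle mice, and 0 with KW6002 alone under every alternative, leave-one-out fits included, except for the threshold of an adjusted p below 0.05 at any fold, which added Trp53. That threshold takes both directions. With it, calls for KW6002 added to cisplatin went from 1 to 8 members, 3 to 20 other targets, and 2 to 9 regulators. Of all genes, 28.6% were higher and 27.2% lower there. Calls for the difference between KW6002 effects went to 7, 16, and 6. Of these, 7, 14, and 4 were lower, where 19.9% of all genes were lower. The other 0, 2, and 2 were higher, for which the share of all genes was not computed. The 19.9% is thus not the share to set beside the counts of both directions. Those for co-treated against vehicle mice went to 24 other targets and 6 regulators, where 29.8% of all genes were higher and 29.9% lower. Those for cisplatin went to 11 regulators, where 34.6% of all genes were higher and 35.9% lower. The 9 and 11 of 15 regulators are near these shares of all genes. Tested against a log2 fold change of 1, 0 members, 1 other target, and 0 regulators remained for the addition of KW6002 and for the difference between its effects, and 0 regulators for cisplatin. Of all 17131 genes, that test called 481, 261, and 2393 in the same order of comparisons. The difference between KW6002 effects was called for 2 members, Trp53inp1 beside Gdf15, with library size only and with fat markers as a covariate. Those settings called 1523 and 1421 of all 17131 genes. Regulators called with cisplatin numbered 2 with library size only, 2 with the label series as a covariate, and 3 with only the 500s. Over all genes these settings called 4352 of 17131, 4159 of 17131, and 4186 of 17761. The median share kept was 85.8% on the log2 scale and 70.1% on the linear CPM scale. Leaving out 1 library gave 2 to 3 regulators called for the addition of KW6002 and 17 to 18 other targets for cisplatin, and a median share of 84.5% to 87.2%. The sign changed for 7 values in 15 fits in all, and each had an adjusted p of 0.128 or more there. These were Phlda3 for the addition of KW6002 (0.09 with fat markers as a covariate), Phlda3 and Ccng1 for the difference between KW6002 effects, and Trp53, Ccng1, Phlda3, and Eda2r for KW6002 alone. The cause of these shifts was not tested beyond the choices named.

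The replicate numbers were not used as pairs in the main fit. Deviations of same-numbered libraries had a median correlation of 0.00846, with 7 of 31 pairs over 0.1 and a highest value of 0.405. Between libraries of different numbers the median was -0.00142, with 12 of 150 pairs over 0.1 and a highest value of 0.337. Whether the numbers stand for pairs was not tested further. With the replicate number as a block, 9, 1, 0, 9, and 1 members were called for cisplatin, the addition of KW6002, KW6002 alone, co-treated against vehicle mice, and the difference between KW6002 effects. In the same order the block gave 17, 3, 0, 15, and 3 other targets and 1, 2, 0, 0, and 2 regulators. Over all 17131 genes it called 4105, 1715, 0, 2296, and 1460. The closest libraries, cisplatin replicates 3 and 4, differed by a chi-square of 2.94 per gene, so that none was counted as a duplicate. Depth limits mainly Eda2r without cisplatin, with 15 to 38 counts per library.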
